A study of Mus musculus with 28 samples.

Results

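Hair germ stem cells labelled Alkbh5 cKO (conditional knockout) or wild type (WT) were compared by SMART-seq, a method that amplifies full-length cDNA from small amounts of RNA. These 4 libraries, 2 labelled WT and 2 labelled cKO, were chosen by their labels out of 28 samples in the series. The other samples are bulge stem cell and hair germ libraries made by SHERRY2, which tags RNA/cDNA hybrids with a transposase, and m6A libraries that were not used here. All mice were at postnatal day 69 and the cells came from skin by flow cytometry. Libraries started from 40 ng of total RNA extracted with TRIzol. Not given in the sources used here were the Cre driver, the deleted part of the gene, the sorting markers and any shared litter. Each library is 1 mouse, so the tests below measure the spread between 2 mice per group.

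ALKBH5 is a demethylase that removes the m6A mark from RNA, a mark that writer enzymes place and reader proteins bind, and that bears on the stability, splicing and translation of the transcript. The hair germ is the small cluster of progenitors below the bulge, the reserve of long-lived stem cells of the resting follicle. When a follicle passes from rest (telogen) to growth (anagen), hair germ cells respond to Wnt and FGF signals, divide first, and give rise to the hair shaft and its inner root sheath. BMP signals hold the follicle at rest.

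The level of Alkbh5 (ENSMUSG00000042650; chromosome 11, 60427207 to 60449338 in the bulge table, which names no build) did not follow the labels. It was 136 CPM (read counts per library total, with totals adjusted by the trimmed mean of M-values) in WT mouse 1 and 94.2 in WT mouse 2, against 83.5 in the mouse 1 labelled cKO and 105.8 in the mouse 2 labelled cKO. The groups overlapped, since the second cKO library lay above the lower WT library. The mean was 115.2 ± 29.7 CPM for WT and 94.6 ± 15.8 for the libraries labelled cKO (SD, n = 2 each). The log2 fold change, labelled cKO over WT, was -0.28 (SE 0.26, 95% confidence interval -0.94 to 0.37, adjusted p = 1, edgeR quasi-likelihood test with Benjamini-Hochberg adjustment over 17547 genes). Without WT mouse 1 it was 0.003, so its sign rests on that library. A count over all exons does not show whether a deleted exon was present. Every direction below is therefore one between libraries labelled cKO and libraries labelled WT.

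**Figure D1:**
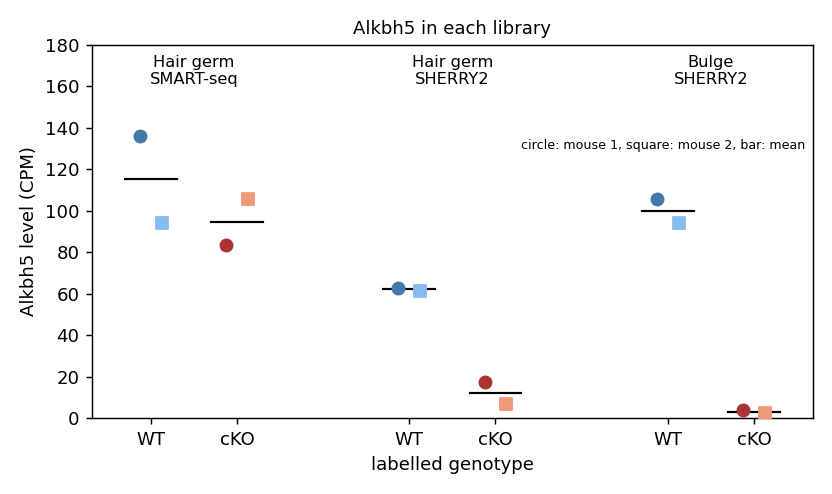
Alkbh5 level in CPM (vertical axis) by labelled genotype (horizontal axis) in hair germ SMART-seq, hair germ SHERRY2 and bulge SHERRY2. Each point is 1 mouse and the bar is the mean of 2; the SMART-seq libraries labelled cKO sit at 83.5 CPM, below both of their WT libraries, and at 105.8, between them, whereas the bulge cKO libraries sit at 4.11 and 2.38.

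The same gene was measured in the SHERRY2 libraries of the series, which serve here as a comparison. In a joint fit, bulge Alkbh5 was 105.5 and 94.1 CPM in WT and 4.11 and 2.38 in cKO. The genotype effect in SMART-seq minus that in the bulge was 4.67 on the log2 scale (SE 0.41, adjusted p = 0.0335, edgeR), so the 2 effects differed. That call was lost when either library labelled cKO was left out (adjusted p = 0.0738 without mouse 1 and 0.101 without mouse 2), with differences of 4.82 and 4.49. In hair germ SHERRY2, the same cell type by the other method, Alkbh5 was 62.8 and 61.4 in WT and 17.7 and 6.90 in cKO, in normalized values scaled to CPM. The difference from SMART-seq was 2.13 on the log2(value + 1) scale (SE 0.60, unadjusted p = 0.00465, limma). It did not pass the threshold after adjustment over 30889 genes (adjusted p = 0.979, limma). When 1 SMART-seq library was left out, the difference ran from 1.90 to 2.36. The bulge libraries started from 200 ng of RNA. Sex was not balanced between the bulge labels. Bulge WT mouse 2 had 87 reads of Xist and 1814 of the Y-linked gene Ddx3y. Bulge WT mouse 1 and both bulge cKO mice had 29783 to 48059 reads of Xist and 0 to 6 of Ddx3y. Cell type, method, RNA input and the balance of sex differ between SMART-seq and the bulge, so their parts cannot be told apart.

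No gene at all passed the test between the labels (0.0% of 17547), so none next to Alkbh5 and none of the m6A machinery did. Of 51 genes listed within 500 kb of its start in the deposited bulge table, 23 had enough reads. None of these was higher without overlap (11.8% of all genes tested) and 3 were lower (12.5%), with a median log2 fold change of 0.06 and a lowest unadjusted p of 0.256. None of the 12 writer genes, 9 AlkB family genes or 13 reader genes tested passed. The writer catalytic subunit Mettl3 was at 19.8 and 21.2 CPM in WT and 19.7 and 26.8 under the cKO label. Its partner Mettl14 was at 26.1 and 27.6 in WT and at 24.6 and 24.4 under the cKO label. The reader Ythdf1 gave 62.0 and 65.3 in WT and 57.6 and 46.4 under the cKO label (log2 fold change -0.29, SE 0.20).

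The libraries held 9001396 to 14416601 reads in genes and 22992 to 24641 detected genes, with 12.5 to 15.2% of reads in mitochondrial genes. Hair follicle epithelium dominated: Krt5 lay between 5236 and 7460 CPM, Krt15 between 3409 and 8514, and all 14 hair germ genes listed were detected in each library. So were all 20 bulge genes listed, so detection does not set the hair germ apart from the bulge. Summed levels ran from 2403 to 3229 CPM for the hair germ genes and from 8184 to 19230 for the bulge genes. Endothelial markers summed to 2.12 to 3.75 CPM, with Cldn5, Emcn and Tie1 at 0, and T cell markers to 17.4 to 27.1. The 2 libraries of mouse number 1 had Xist at 3043 and 2841 CPM and no read of the Y-linked genes Kdm5d, Ddx3y, Uty and Eif2s3y. The 2 libraries of mouse number 2 had these Y-linked genes at 54.9 to 80.8 CPM, with Xist at 7.52 CPM in WT and 64.5 in the library labelled cKO. Whether that last library also holds RNA of another mouse was not tested. Mouse number thus went with sex, in the same way in both labels, and with depth, since the number 2 libraries were the shallower pair.

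No gene was called between the labels (0.0% of 17547 tested at an adjusted p of 0.05, edgeR). At an unadjusted p of 0.05, 179 genes passed (1.02%), 86 higher (0.49%) and 93 lower (0.53%) with the cKO label. DESeq2 also called 0 genes, with 176 at an unadjusted p of 0.05, and limma-voom 0, with 163. The groups did not overlap for 2078 genes that were higher (11.8%) and 2185 that were lower (12.5%). The median standard error of a log2 fold change was 0.39, so only large and even differences could pass.

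The genes with the lowest p are given as values that did not pass. Among those higher in both libraries labelled cKO were genes known to respond to glucocorticoids. Zbtb16, a transcription factor of that kind, was at 178 and 177 CPM in WT and at 328 and 498 under the cKO label (log2 fold change 1.22, SE 0.27, unadjusted p = 0.00528, adjusted p = 1, edgeR). Tsc22d3, which encodes the glucocorticoid-induced leucine zipper protein GILZ, was at 36.2 and 73.8 CPM in WT and at 127 and 176 under the cKO label (log2 fold change 1.46, SE 0.39). Fkbp5, a co-chaperone of the glucocorticoid receptor, was at 18.5 and 73.7 CPM in WT and at 99.3 and 116 under the cKO label (log2 fold change 1.22, SE 0.63, unadjusted p = 0.105, edgeR). It is given from the glucocorticoid list and is not among the genes with the lowest p. For these 3 genes each library labelled cKO lay above both WT libraries. Of the 11 glucocorticoid-induced genes tested, 8 had positive and 3 negative fold changes, 3 were higher without overlap (11.8% of all genes tested), and the median was 0.17 against -0.02 over all genes tested. The list median was 0.0 without the mouse 2 labelled cKO.

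Other genes with low p and higher values included a glutamine enzyme and genes of the cornifying epidermis. Atp10b, a lipid-transporting ATPase, was at 40.9 and 32.8 CPM in WT and at 75.8 and 70.4 under the cKO label (log2 fold change 0.99, SE 0.21). Glul, the glutamine synthetase gene, was at 187 and 235 CPM in WT and at 475 and 369 under the cKO label. Klk7, a protease of skin shedding, was at 28.4 and 29.1 in WT and at 124 and 51.5, so most of its excess lay in mouse 1 labelled cKO. Gsdma (a gasdermin of the epidermis), Qsox1 (a sulfhydryl oxidase), Nfatc2 (a calcium-regulated transcription factor), Mxd1 (a Max-binding repressor) and Crabp2 (a retinoic acid binding protein) completed the 10 named by lowest p, with log2 fold changes of 0.71 to 1.21. Each did not overlap between the labels.

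Genes lower in both libraries labelled cKO included a nuclear mediator of Wnt signalling. Lef1, a transcription factor that binds beta-catenin and marks the activated hair germ and matrix, was at 24.0 and 26.6 CPM in WT and at 12.3 and 8.83 under the cKO label (log2 fold change -1.26, SE 0.29, unadjusted p = 0.00688, adjusted p = 1, edgeR). Npr3, a clearance receptor for natriuretic peptides, was at 19.5 and 15.2 CPM in WT and at 5.85 and 5.93 under the cKO label (log2 fold change -1.56, SE 0.31). Htra1, a secreted serine protease, was at 130 and 108 CPM in WT and at 63.5 and 44.6 under the cKO label (log2 fold change -1.14, SE 0.25). Ace (angiotensin-converting enzyme), Orai2 (a calcium channel subunit), Gxylt2 (a xylosyltransferase), Man1a (a mannosidase), the histone gene H4c9, and Gm25848 and Gm25099 made up the rest, with log2 fold changes of -0.72 to -1.85. None of these 20 genes changed sign when any 1 library was left out. They were selected for not overlapping, so their evenness is part of the choice.

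**Figure D2:**
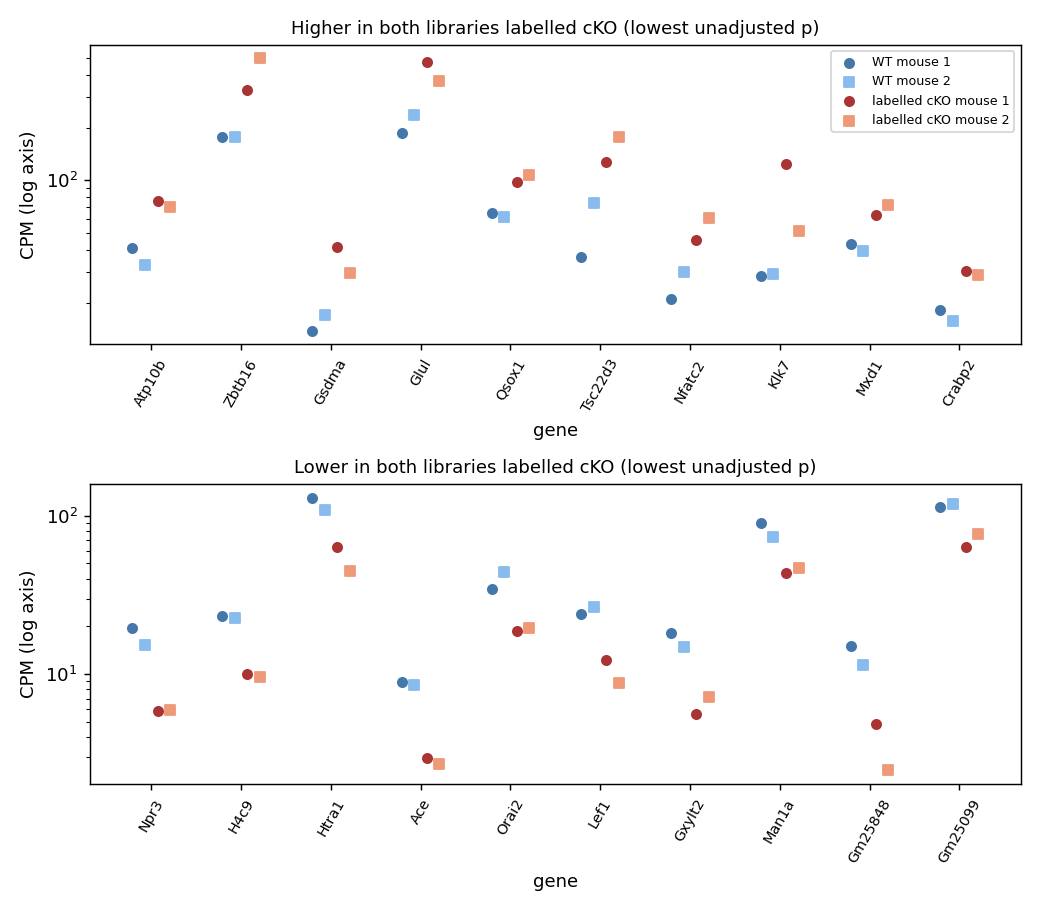
Level in CPM (vertical, log axis) of the 10 genes per direction with the lowest unadjusted p (horizontal axis), with 1 point per library. WT points (blue) and points labelled cKO (red) are separate for every gene, as the choice of genes requires; Zbtb16 runs from 177 to 498 CPM and Lef1 from 8.83 to 26.6.

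Wnt genes leaned lower with the cKO label. Of 33 tested, 26 had negative fold changes, 10 were lower without overlap (12.5% of all genes tested) and 1 (the co-receptor Lrp5) was higher without overlap (11.8%), and the median log2 fold change was -0.34. Within mouse number 1, 16 were positive and 17 negative, and within mouse number 2, 8 were positive and 25 negative. The median ran from -0.72 to -0.21 when 1 library was left out, and no member passed the test over all genes. Among the ligands, Wnt7a was at 4.01 and 3.25 CPM in WT and at 0.293 and 0.671 under the cKO label, from 56, 38, 4 and 6 reads (log2 fold change -2.94, SE 0.68). The ligand Wnt10b was at 11.8 and 14.5 in WT and at 6.29 and 3.8 under the cKO label (log2 fold change -1.37, SE 0.39). The secreted inhibitor Wif1 was at 23.0 and 17.2 CPM in WT and at 7.68 and 2.46 under the cKO label. Nkd1, an intracellular feedback inhibitor of the pathway, was at 11.5 and 11.5 in WT and at 6.0 and 5.70 under the cKO label. Wif1 and Nkd1 were chosen after their values were seen. Ligand, mediator and inhibitor genes thus all had members that lay lower, whereas Axin2, the usual target of the pathway, was at 49.5 and 27.3 in WT and at 50.5 and 21.9, with no order between the labels.

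FGF and hair germ genes also had mostly negative fold changes. Of 15 FGF genes tested, 11 had negative fold changes and 7 were lower without overlap (12.5% of all genes tested), with a median of -0.51. Within mouse number 1, 11 were negative, and within mouse number 2, 12 were. The ETS factor Etv4, a target of FGF signalling, was at 28.5 and 29.7 CPM in WT and at 16.5 and 8.27 under the cKO label (log2 fold change -1.22, SE 0.39). Its relative Etv5 was at 36.4 and 30.9 in WT and at 22.5 and 11.5 under the cKO label. Dusp6, a phosphatase that limits ERK signalling, was at 159 and 128 in WT and at 104 and 93.8 under the cKO label. Spry1, Spry2, Spry4 and Fgfr2 were the others that did not overlap. Of 14 hair germ genes, 13 had negative fold changes, with 6 lower without overlap (12.5% of all genes tested) and a median of -0.34. Within mouse number 1 they were split, 7 positive and 7 negative (median log2 ratio -0.03), and within mouse number 2, 13 were negative (median -0.71). Runx1, a factor needed for timely anagen, was at 320 and 358 CPM in WT and at 256 and 237 under the cKO label (log2 fold change -0.46, SE 0.20). Msx2, a homeobox factor of the follicle, was at 14.5 and 20.1 in WT and at 10.3 and 8.39 under the cKO label. The hair germ median ranged from -0.73 to -0.13 when 1 library was left out.

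Cholesterol synthesis and uptake genes gave 16 negative fold changes of 20, with 10 lower without overlap (12.5% of all genes tested), 1 higher (Dhcr7; 11.8%) and a median of -0.32. Insig1, which restrains the pathway, was at 38.5 and 33.0 CPM in WT and at 22.2 and 25.7 under the cKO label. The median ran from -0.36 to -0.15 when 1 library was left out. In BMP genes, 10 of 23 were positive and 13 negative, with a median of -0.05. In p53 target genes, 9 of 21 were positive and 12 negative, with a median of -0.03. Of these, 3 were higher without overlap (11.8% of all genes tested), Trp53inp1 among them, and 1 (Aen) was lower (12.5%). The arrest gene Cdkn1a, a p53 target, was at 71.4 and 102 CPM in WT and at 94.5 and 136 under the cKO label, so its groups overlapped. Within each mouse number Cdkn1a was higher under the cKO label, with log2 ratios of 0.40 in number 1 and 0.41 in number 2.

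Cell division genes varied widely between libraries, and in opposite directions within the 2 mouse numbers. All 26 genes of G2 and M phase had negative fold changes with a median of -0.34, yet none was free of overlap. Within mouse number 1 all 26 were higher in the library labelled cKO (median log2 ratio 1.11), and within mouse number 2 all 26 were lower (median -2.85). Mki67, the proliferation antigen, was at 178 and 436 CPM in WT and at 417 and 43.3 under the cKO label. Top2a, the topoisomerase of dividing cells, was at 78.0 and 157 in WT and at 182 and 15.3 under the cKO label. The mitotic kinase gene Cdk1 was at 9.88 and 22.9 in WT and at 24.5 and 2.12 under the cKO label. The mouse 2 labelled cKO was thus lowest and the mouse 1 labelled cKO about level with WT mouse 2. The list median was 0.44 without the mouse 2 labelled cKO, 0.36 without WT mouse 2, -0.81 without WT mouse 1 and -2.59 without the mouse 1 labelled cKO, so its direction rests on single libraries. With mouse number as a block it was -0.79.

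Genes of S phase were also negative in all 27 tested (median -0.54), with 5 lower without overlap (12.5% of all genes tested). The licensing factor Cdc6 was at 6.01 and 9.49 CPM in WT and at 5.27 and 2.24 under the cKO label. The helicase subunit Mcm4 was at 51.2 and 55.5 in WT and at 46.7 and 16.8 under the cKO label. Within mouse number 1, 20 of 27 were higher in the library labelled cKO, and within mouse number 2 none was. Without the mouse 2 labelled cKO the median was -0.01. Replication-dependent histone genes, matched as a family by symbol, had 55 of 59 negative fold changes (median -0.40), with within-number medians of 0.88 and -2.57. The median was 0.35 without the mouse 2 labelled cKO, 0.19 without WT mouse 2 and -2.47 without the mouse 1 labelled cKO. That list includes the lowest p of the comparison. H2ac23 was at 4.94 and 6.50 CPM in WT and at 0.805 and 0.447 under the cKO label (log2 fold change -3.14, SE 0.57, adjusted p = 1, edgeR). H2bc24 was at 4.37 and 5.04 in WT and at 0.658 and 0.447 under the cKO label. H2ac23, H2bc24 and H4c9 were lower within both numbers, unlike the median of the family. Histone genes are near-identical copies and most of their transcripts lack a poly(A) tail, so reads could be split among copies in counting.

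**Figure D3:**
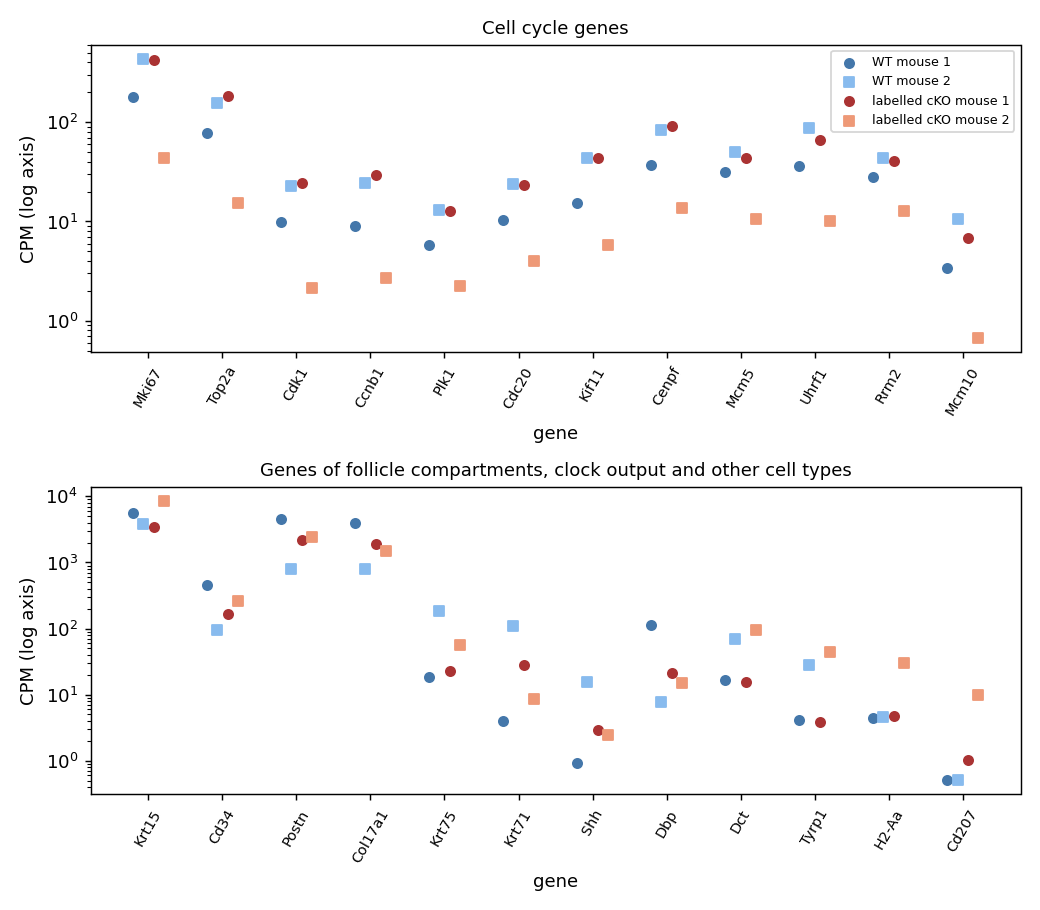
Level in CPM (vertical, log axis) of cell cycle genes (upper panel) and of genes of follicle compartments, the clock and other cell types (lower panel), with 1 point per library. In the upper panel the mouse 2 labelled cKO is lowest throughout (Mki67 at 43.3 CPM) and the mouse 1 labelled cKO lies near WT mouse 2 (417 and 436).

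The promoters of 4 of the G2 and M phase genes are shown because the whole list moved together between libraries. Many genes of that phase are known to carry CCAAT boxes, bound by NF-Y, and a cell cycle genes homology region (CHR), bound by DREAM and MuvB complexes. The letters searched were CCAAT or ATTGG and TTTGAA or TTCAAA, that is both strands of each. The motifs share no fixed overlap. Of 26 tested members, 22 had a RefSeq promoter window of 300 bases (GRCm38.p6, 250 before to 50 after the start), and 17 of these held TTTGAA (77.3%), 19 held CCAAT (86.4%) and 16 held both (72.7%). Over the windows of 27025 genes the shares were 20.2%, 41.1% and 7.97%. Of the 21 S phase genes with a window, 2 held TTTGAA (9.52%) and 13 held CCAAT (61.9%). The 120 bases before the start are given 5′ to 3′ on the strand of the gene, with both motifs in capitals. They lie at chr4:118437344-118437463 (minus strand) for Cdc20, the activator of the anaphase-promoting complex, chr10:69352913-69353032 (minus) for Cdk1, chr11:99024190-99024309 (minus) for Top2a and chr2:164769809-164769928 (plus) for Ube2c, the ubiquitin-conjugating enzyme of mitotic exit.
Cdc20: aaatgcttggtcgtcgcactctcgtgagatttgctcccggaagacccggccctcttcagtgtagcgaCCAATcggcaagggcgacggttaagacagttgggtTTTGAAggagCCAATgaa
Cdk1: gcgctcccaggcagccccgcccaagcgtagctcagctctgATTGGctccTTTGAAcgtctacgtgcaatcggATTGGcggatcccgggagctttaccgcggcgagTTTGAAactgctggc
Top2a: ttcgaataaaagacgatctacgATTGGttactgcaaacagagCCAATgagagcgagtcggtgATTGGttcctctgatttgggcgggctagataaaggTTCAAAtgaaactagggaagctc
Ube2c: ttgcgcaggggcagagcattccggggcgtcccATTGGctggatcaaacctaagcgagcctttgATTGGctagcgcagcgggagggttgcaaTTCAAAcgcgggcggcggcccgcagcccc
A match is a description of these letters, and no binding was measured. Cdc20 was at 10.3 and 24.1 CPM in WT and at 23.3 and 4.03 under the cKO label, and Ube2c at 7.16 and 16.8 in WT and at 15.4 and 0.447 under the cKO label. Both had the same order across the 4 libraries as Mki67, with WT mouse 2 highest and the mouse 2 labelled cKO lowest. These 4 genes were chosen after their values were seen.

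Follicle compartments differed by library in other patterns. Of 9 inner root sheath genes tested, which differentiating cells of the growing follicle express, 7 were highest in WT mouse 2 and 5 were lowest in WT mouse 1. The keratin gene Krt71 was at 3.94 and 109 CPM in WT and at 28.1 and 8.72 under the cKO label, and Krt25 at 2.00 and 54.0 in WT and at 16.1 and 4.03 under the cKO label. The signal Shh, secreted by the growing germ, was at 0.931 and 15.6 in WT and at 2.93 and 2.46 under the cKO label. Krt71, Krt25 and Shh were lowest in WT mouse 1. Krt26, another keratin gene of the list, was lowest in WT mouse 2, at 0.644 and 0.171 in WT and 1.76 and 1.79 under the cKO label. Krt26 was chosen after its values were seen. Of the 9 genes 8 had negative fold changes (median -1.44), and without WT mouse 2 the median was 1.45. Of 20 bulge genes, 12 were highest in WT mouse 1 and 12 were lowest in WT mouse 2. Postn, a matrix protein, was at 4500.3 and 792 CPM in WT and at 2161 and 2472 under the cKO label, and the stem cell marker Cd34 at 461 and 95.1 in WT and at 166 and 260 under the cKO label. The bulge keratin gene Krt15, chosen after its values were seen, had another order, at 5522 and 3878 in WT and at 3409 and 8514 under the cKO label. The summed level of 20 bulge genes ran from 8184 CPM in WT mouse 2 to 19230 in WT mouse 1. In bulk samples, fewer cells of a type and less RNA per cell cannot be told apart.

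Markers of Langerhans and dendritic cells were high in the mouse 2 labelled cKO: Cd207, the langerin gene, was at 0.501 and 0.513 CPM in WT and at 1.02 and 9.84 under the cKO label, and the antigen-presenting gene H2-Aa at 4.37 and 4.62 in WT and at 4.68 and 29.6 under the cKO label. The list median of 1.2 was 0.09 without that library. Dbp, a clock output factor, was at 112 and 7.78 CPM in WT and at 20.9 and 14.9 under the cKO label, and Per3, a clock gene, at 110 and 18.6 in WT and at 29.3 and 25 under the cKO label. Both were highest in WT mouse 1, and the median of the 17 clock genes, -0.51, was 0.47 without it. The median of 24 immediate early genes, -0.39, was 0.32 without the same library. T cell markers summed to 24.0 and 17.4 CPM in WT and to 27.1 and 17.6 under the cKO label. The hour of collection was not stated in the labels.

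**Figure D4:**
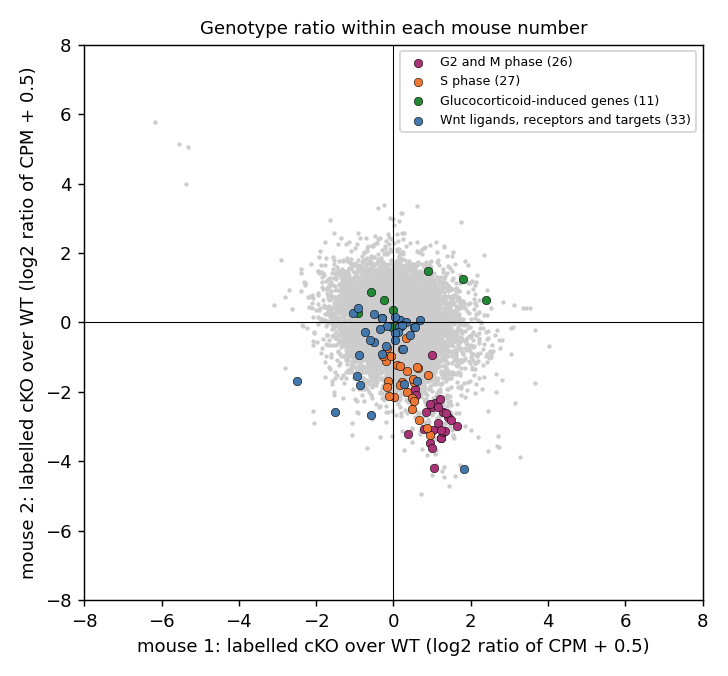
Log2 ratio of CPM + 0.5, labelled cKO over WT, within mouse number 1 (horizontal axis) and within mouse number 2 (vertical axis), with 1 point per gene tested. G2 and M phase genes lie to the right and below 0 (medians 1.11 and -2.85), whereas Wnt genes have medians of -0.18 and -0.31.

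The libraries separated first by mouse number. The first principal component held 51% of the variance and separated the numbers, and the third, with 17.3%, separated the labels. The second, with 31.8%, followed neither. It set WT mouse 2 and the mouse 1 labelled cKO apart from WT mouse 1 and the mouse 2 labelled cKO. In log2 CPM, WT mouse 2 correlated more with the mouse 1 labelled cKO (r = 0.951) than with the mouse 2 labelled cKO (0.946). For WT mouse 1 the highest correlation was with the mouse 1 labelled cKO (0.960). Number 2 against number 1 gave 13 calls (0.0741% of 17547), 6 higher (0.0342%) and 7 lower (0.0399%). At an unadjusted p of 0.05, 1965 genes passed (11.2%), 792 higher (4.51%) and 1173 lower (6.68%). The groups did not overlap for 3652 genes that were higher in number 2 (20.8%) and 4000 that were lower (22.8%). Of the 6 higher, 4 were the Y-linked genes given above (adjusted p = 0.00558 each, edgeR). The others were Smoc1, a secreted calcium-binding protein, and Dct, a melanin synthesis enzyme. Dct was at 16.5 and 15.6 CPM in the number 1 libraries and at 69.6 and 94.0 in the number 2 libraries (log2 fold change 2.35, SE 0.22, adjusted p = 0.0472, edgeR). With a genotype term neither Dct nor Smoc1 passed (adjusted p = 0.0724 each). Without the genes of X, Y and the mitochondria the values were 0.0681 for Dct and 0.0582 for Smoc1. Leaving out any 1 library other than the mouse 1 labelled cKO also ended both calls, with adjusted p from 0.0543 to 0.0679 for Dct and from 0.0543 to 0.0849 for Smoc1. Of 8 melanocyte genes tested, 7 were higher in number 2 without overlap (20.8% of all genes tested). Tyrp1 was at 4.08 and 3.88 CPM in number 1 and at 27.9 and 43.4 in number 2. The summed level of all 10 melanocyte genes listed was 166.7 and 89.4 CPM in number 1 and 192.1 and 294.3 in number 2, without overlap. Mitf, the master factor of that lineage, was the exception among the 8, at 130 and 51.9 in number 1 and 42.1 and 95 in number 2. It made up most of the sum in number 1.

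Genes lower in number 2 included enzymes of aldehyde and fatty acid metabolism, a Wnt ligand and an alarmin. Aldh3a1, an aldehyde dehydrogenase, was at 95.3 and 78.1 CPM in number 1 and at 6.50 and 5.59 in number 2 (log2 fold change -3.84, SE 0.22, adjusted p = 0.00668, edgeR). The ligand Wnt10a was at 36.4 and 28.5 in number 1 and at 3.42 and 2.91 in number 2 (log2 fold change -3.35, SE 0.29, adjusted p = 0.0335). The call of Aldh3a1 was lost without WT mouse 2 (adjusted p = 0.0578). That of Wnt10a was lost without WT mouse 2 (0.0959), without the mouse 2 labelled cKO (0.0704), with a genotype term (0.0708), without the genes of X, Y and the mitochondria (0.0582) and with limma-voom (0.0776). Il33, an alarmin of epithelia, was at 16.0 and 10.5 in number 1 and at 0.171 and 0.112 in number 2. Acsl4, Fry and Igfbp4 had log2 fold changes of -2.09 to -2.76. The calls of Il33, Acsl4, Fry and Igfbp4 were lost with a genotype term (adjusted p from 0.0539 to 0.0708) and without WT mouse 2 (0.0849 to 0.0978). In 17 epidermal differentiation genes, 13 were lower in number 2 without overlap (median -1.99), and among 21 collagens, laminins and integrins 15 were (median -0.73). Over all genes tested, 22.8% were lower in number 2 without overlap. Sex, depth and the animal coincide in this number and cannot be told apart. With a genotype term in the fit, 6 genes were called, and without the genes of X, Y and the mitochondria, 1 was. There were 5 calls without WT mouse 2, 269 without the mouse 1 labelled cKO and 25 without the mouse 2 labelled cKO.

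Genes called higher in the bulge knockout were mostly negative in these libraries, and those called lower there were split in sign. Of 476 genes called in the bulge (3.04% of 15672), 453 were tested in SMART-seq. Of the 208 that were higher in bulge cKO, 67 were positive in SMART-seq, and of the 245 that were lower, 132 were negative. Over all 17547 genes tested in SMART-seq, 8414 were positive and 9133 negative. The medians of the higher and the lower bulge set were -0.15 and -0.03 in SMART-seq and 1.40 and -1.24 in the bulge. A joint fit called 8 genes whose genotype effect differed between the datasets (0.0413% of 19371), 2 with a higher (0.0103%) and 6 with a lower effect (0.031%) in SMART-seq, and 1291 genes had an unadjusted p under 0.05 (6.66%).

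Alkbh5, above, was 1 of the 8. Ptp4a3, a phosphatase gene, was at 16.6 and 13 CPM in WT and at 8.76 and 9.75 under the cKO label, whereas the bulge had 19.8 and 19.6 in WT and 218 and 271 in cKO (difference of log2 effects -4.31, SE 0.28, adjusted p = 0.0064, edgeR). Aen, a nuclease induced by p53, was at 18.4 and 20.4 CPM in WT and at 13.4 and 14.3 under the cKO label, and in the bulge at 21.2 and 17.8 in WT and at 93.3 and 94.5 in cKO (difference -2.76). Mcam, a cell adhesion receptor, was at 11 and 19.9 in WT and at 18.2 and 13 under the cKO label, and in the bulge at 10.2 and 5.16 in WT and at 340 and 445 in cKO (difference -5.64). In SMART-seq no library labelled cKO exceeded the higher WT library for these 3 genes. Zmat3, a p53 target, and Kank3, chosen after their values were seen, differed by -2.00 and -3.56.

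Glul and Wnt7a leaned opposite ways. Glul was at 704 and 449 CPM in bulge WT and at 89.0 and 74.2 in bulge cKO, against log2 fold changes of 1.00 in SMART-seq and -2.83 in the bulge (difference 3.82, SE 0.39, adjusted p = 0.0393, edgeR). Wnt7a was at 1.21 and 0.906 CPM in bulge WT and at 12.7 and 13.6 in bulge cKO, against log2 fold changes of -2.94 and 3.61 (difference -6.58, SE 0.71, adjusted p = 0.0419). No SMART-seq effect passed its own test. In the test of the difference by limma-voom, Wnt7a and Kank3 did not pass (adjusted p = 0.0677 and 0.153), whereas the other genes of the 8 did. None of the 8 calls held when either library labelled cKO was left out. Those of Glul, Wnt7a, Kank3 and Zmat3 were also lost without WT mouse 1. With no filter on low values, 513 genes were called. Against hair germ SHERRY2, 0 genes were called (0.0% of 30889, limma), with 820 at an unadjusted p of 0.05 (2.65%) and 0 calls by edgeR on recovered reads. The SHERRY2 libraries held 488648 to 2317407 recovered reads, against 9001396 to 14416601 reads in SMART-seq. With so few reads and 2 mice per group, 0 calls do not show that the effects were equal.

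**Figure D5:**
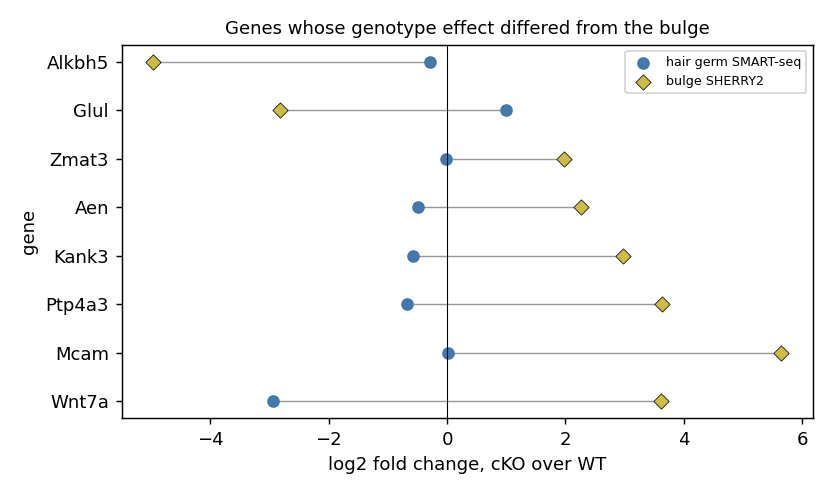
Log2 fold change, cKO over WT (horizontal axis), of the 8 genes (vertical axis) whose genotype effect differed between hair germ SMART-seq (circles) and bulge SHERRY2 (diamonds). SMART-seq values lie between -2.94 and 1.00, and bulge values between -4.97 and 5.64.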

How the data were processed

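The deposited SMART-seq table holds read counts for 57010 Ensembl IDs, which the authors made, per the submitters' processing notes, with tools that include fastp, HISAT2, SAMtools and Subread featureCounts. Its build and use of strand were not stated there. The bulge table also holds deposited read counts. For hair germ SHERRY2 the authors deposited a normalized signal per gene, from which whole reads were recovered (100% of values within 0.01 reads).

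Counts were tested with edgeR 4.0.16 (R 4.3.3, quasi-likelihood, TMM, filterByExpr, two-sided, Benjamini-Hochberg at 0.05). SE is the absolute log2 fold change over the root of F. CPM use TMM-scaled totals. Difference tests were joint edgeR fits, or for SHERRY2 limma 3.58.1 on log2(value + 1), for genes with a mean of 1 or more. The design foresaw counts for SHERRY2, and limma was its choice for normalized values. Alternatives were other scalings, no filter, DESeq2 1.42.0, limma-voom, a replicate block and each library left out. The code was tested on simulated data. Members and 48 gene lists were chosen with earlier results of these data known; lists have counts and medians and no test. Named genes were Alkbh5, the 10 per direction with the lowest p (mean of 5 CPM or more, no overlap), 3 per list, the 10 most abundant, 6 per direction by number, and up to 6 per difference test. Other genes named, such as Mki67, Top2a, Cdk1, Krt71, Krt25, Postn, Cd34, Dbp and Axin2, were chosen after their values were seen. Some members chosen by these rules are not reported here. Mouse numbers share a number and no stated litter. SMART-seq depth was 9001396 to 14416601 reads.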

Additional observations from a re-analysis of the deposited data

Results flagged for a closer look

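The genotype effect differed between hair germ SMART-seq and the bulge, by the test of the difference itself (edgeR, adjusted p under 0.05), for 8 genes. The log2 effect in SMART-seq minus that in the bulge was 4.67 for Alkbh5, 3.82 for Glul, -2.00 for Zmat3, -2.76 for Aen, -3.56 for Kank3, -4.31 for Ptp4a3, -5.64 for Mcam and -6.58 for Wnt7a. Method, RNA input, cell type and the balance of sex between the labels differ between the datasets and cannot be told apart. In the joint fit, Alkbh5 under the cKO label was at 84.7 and 107 CPM in SMART-seq and at 4.11 and 2.38 in the bulge. That level thus differed between the datasets as well, and its part cannot be told apart from the others.

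In 2 lists every gene tested was higher with the cKO label in mouse number 1 and lower in mouse number 2. For 26 G2 and M phase genes the median log2 ratio was 1.11 in number 1 and -2.85 in number 2. For 13 replication-dependent histone genes it was 1.04 and -2.02. Each number holds 1 mouse per label, and the difference was not tested.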

How the results depend on the processing

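With 2 mice per label, calls need differences that are large against a common spread, and leaving out 1 library leaves an arm of 1 that is assumed to vary like the rest. Between the labels, 0 genes were called under edgeR, DESeq2, limma-voom, both other scalings and each library left out, and 30 without a filter on low counts (9 higher, 21 lower). All 30 were among the 17547 genes tested with the filter. Tsc22d3 (edgeR adjusted p = 0.000648), Klk7, Zbtb16 and Htra1 were among them. With mouse number as a replicate block, 0 genes were called and 343 had an unadjusted p under 0.05. Deviations of same-numbered libraries correlated at 0.23, a single value that cannot decide whether they form pairs. The main fit held no term for mouse number, because the labels name no covariate. Differences that go with the number, sex among them, thus count as spread in its standard errors and in the overlap of the groups. The Alkbh5 log2 fold change was -0.27 with the block and ranged from -0.52 to 0.003 when 1 library was left out, which includes 1 change of sign.

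For mouse number, 13 calls became 683 without a filter, 473 with DESeq2, 6 with a genotype term, 1 without X, Y and mitochondrial genes and 5 to 269 when 1 library was left out (5 without WT mouse 2, 269 and 25 without the mouse 1 or mouse 2 labelled cKO). For the difference from the bulge, 8 calls became 513 without a filter and 0 to 18 when 1 library was left out (18 without WT mouse 2). The cause was not tested. The difference from hair germ SHERRY2 had 0 calls in every setting. List medians moved beyond the spread of their within-number medians in 69 of 176 values with 1 library left out and 16 of 306 under other settings. That spread is the SD of 2 values and is wide where the 2 medians are far apart. A change of sign could thus count as not moved. For G2 and M phase genes the change from -0.34 to 0.44 without the mouse 2 labelled cKO counted so.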

Other observations

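A search made after seeing the data looked for genes on in 1 pair of libraries and nearly off in the other pair. A gene counted where both libraries of a pair had at least 5 CPM and at least 10 times the higher of the others plus 0.5 CPM. Neither label had such a gene: 0 genes were on in both WT libraries alone and 0 in both libraries labelled cKO alone. By mouse number there were 5 in number 1 (Aldh3a1, Ear2, Il33, Tnxb and Xist) and 5 in number 2 (6820402A03Rik and the Y-linked Ddx3y, Eif2s3y, Kdm5d and Uty). Tnxb, which encodes the matrix protein tenascin-X, was at 99.1 and 60.4 CPM in number 1 and at 0.513 and 4.92 in number 2.

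A further 4 genes crossed both the label and the number, being on in WT mouse 1 and the mouse 2 labelled cKO. Their names mark them as gene copies: the ribosomal protein gene copies Rps3a2 and Rps3a3, the tropomyosin-related copy Tpm3-rs7 and the histone pseudogene H2af-ps2. Rps3a3 on chromosome 13 had 1366 reads in WT mouse 1 and 699 in the mouse 2 labelled cKO, against 22 in WT mouse 2 and 27 in the mouse 1 labelled cKO. Rps3a2 on chromosome 14 had 795 and 324 reads in the first pair and 2 and 4 in the second. Tpm3-rs7, also on chromosome 14, had 699 and 181 reads against 1 and 8, and H2af-ps2 on chromosome 13 had 282 and 67 against 0 and 0. No gene was on in the opposite pair (WT mouse 2 and the mouse 1 labelled cKO). In the bulge, Rps3a3 had 186 to 305 reads in all 4 libraries and H2af-ps2 had 0 in all 4. Counts of near-identical copies depend on how reads were assigned, so these values are uncertain.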
